A study of Mus musculus with 6 samples.

Results

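The enzymes that build and sulfate glycosaminoglycan chains were followed by gene in dermis with activated beta-catenin. They were the rows of the deposited table whose symbols belong to a list of 44 glycosaminoglycan synthesis genes, and all 44 were found among its 23412 genes. By role, 6 genes make the linker that joins chondroitin, dermatan and heparan sulfate chains to their protein. Another 16 build or modify chondroitin and dermatan sulfate, 17 build, modify or edit heparan sulfate, and 5 supply sugar and sulfate precursors. RNA came from the ventral dermis of mice aged 3 weeks on a mixed CD1 and C57BL/6 background. The 3 controls carried HoxB6CreERT/+ and R26-YFP/+, that is, Cre recombinase driven by Hoxb6 and switched on by tamoxifen, and a fluorescent reporter. The 3 mutants were littermates with the same alleles plus CatnbΔex3/+, a beta-catenin allele that loses exon 3 where Cre acts and then makes a stabilised protein. All mice in both groups were exposed to tamoxifen, given to the mother by gavage at embryonic day 16.5. Cre acts only where the Hoxb6 promoter is active, so the mutant dermis holds recombined and unrecombined cells, and the share of each was not analysed here.

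Glycosaminoglycans are long sugar chains that most proteoglycans carry. A chain of the kinds followed here starts on a serine of the core protein with a short linker that begins with xylose. The next sugar decides its class: N-acetylgalactosamine opens chondroitin or dermatan sulfate and N-acetylglucosamine opens heparan sulfate. Sulfotransferases then add sulfate groups, and epimerases turn glucuronic into iduronic acid, which makes dermatan sulfate out of chondroitin sulfate. In dermis, dermatan sulfate is carried by small proteoglycans that bind collagen fibrils, and heparan sulfate binds growth factors and Wnt proteins at the cell surface.

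Values are FPKM, listed for replicates 1, 2 and 3 of each group in that order: the fragments counted on a gene per kilobase of its length and scaled to the depth of the library, so levels of different genes can be compared. Differences are mutant minus control on the log2(FPKM + 1) scale, which understates the change of low genes. Gene reads, recovered from the steps of the FPKM values, numbered from 7799565 to 9675359 per control and from 11839144 to 13478910 per mutant. Xist, which is transcribed from the inactive X chromosome, stood at 55.5 and 66.2 FPKM in controls 1 and 2. It was at 6.47 FPKM in mutant 2 and at 0.0827 to 0.184 in the other libraries. Library sex was set by a cut at 20 FPKM, which placed mutant 2 with the low libraries. Set in this way, it differed between the groups. The FPKM values of mutant 1 were high and those of control 2 low for most genes: mutant 1 was the highest library for 64.1% of the 12560 genes tested and control 2 the lowest for 47.1%. The 37 tested glycosaminoglycan genes rested on these 2 libraries more often: mutant 1 was highest in 34 (91.9%) and control 2 lowest in 27 (73.0%). After the scaling described next, control 2 was still lowest in 56.8% of them, against 27.3% of all genes, and mutant 1 highest in 32.4%, against 23.4%. Differences were therefore read against the median of all genes tested, which was 0.09, and again after median-of-ratios scaling, which divides each library by the middle ratio of its genes and moved that median to -0.01. The fibroblast markers, 10 genes with Col1a1 and Pdgfra among them, summed to 2737 to 10512 FPKM in controls and 9541 to 13749 in mutants. All 10 had a difference above 0, against 71.3% of all genes. In whole dermis, more cells of a type and more RNA per cell cannot be told apart.

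No glycosaminoglycan gene passed the test, and the chondroitin and dermatan genes had a larger median difference than the heparan genes, a gap of 0.21 that was not tested. The gap was 0.073 when all 44 genes were kept with no filter and 0.14 without control 2. Of the 44 genes, 37 had a mean of at least 1 FPKM and were tested. None of the 37 was called with limma at an adjusted p of 0.05, where 0.143% of all genes tested were called higher and 0.0% lower. Their adjusted p ran from 0.205 to 0.991, and limma-voom on recovered reads also called 0. At an unadjusted p under 0.05, 10 were higher, against 10.5% of all genes, and 0 were lower, against 0.748%. That count of 10 was 3 without control 2, 3 without mutant 1 and 0 with library sex in the model. After median-of-ratios scaling it was 9 higher and 1 lower, while the share of higher genes among all with such a p went from 93.4% to 60.9%. In 11 all mutants lay above all controls, where 13.0% of all genes did so, and in 1 all mutants lay below, where 2.65% did. The median difference was 0.39 over 12 tested chondroitin and dermatan genes and 0.18 over 14 tested heparan genes. The first was 0.22 without control 2, 0.25 with no filter and 0.22 with library sex in the model, and the second was 0.087 without control 2 and 0.086 without mutant 1. The median was 0.23 over the 6 linker genes and 0.13 over the 5 precursor genes. Differences above 0 were found in 32 of 37, against 71.3% of all genes.

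**Figure D1:**
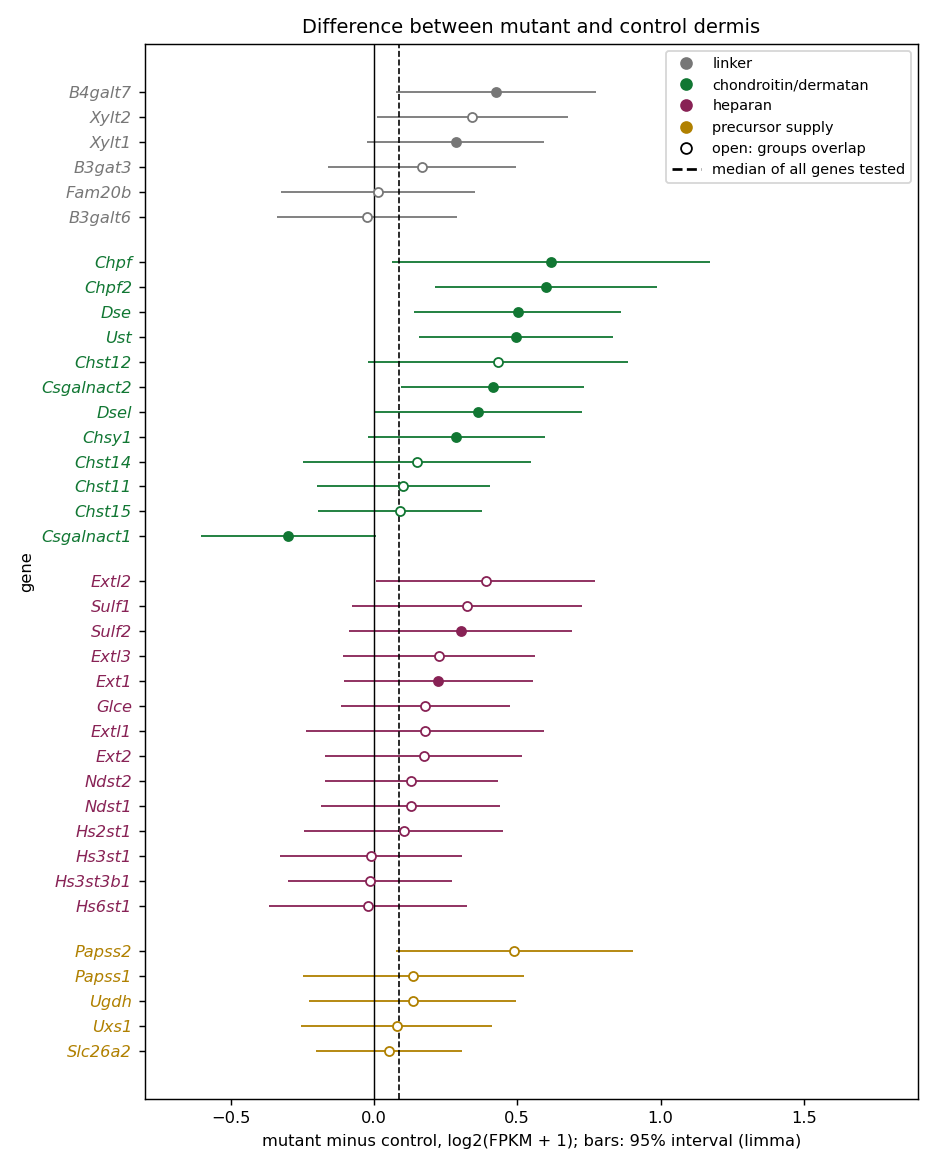
Mutant minus control difference on the log2(FPKM + 1) scale for the 37 tested genes, with 95% intervals from limma, ordered by size within the linker, chondroitin/dermatan, heparan and precursor genes. Filled points mark groups that do not overlap, and the dashed line is the median of all 12560 genes tested (0.09). Chpf and Chpf2 lie farthest to the right and Csgalnact1 farthest to the left.

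After median-of-ratios scaling the chondroitin and dermatan median was 0.28 and the heparan median 0.07, against -0.01 for all genes. Then 27 of the 37 were above 0, against 46.8% of all genes, and the groups were separate upward in 8, against 11.9%, and downward in 1, against 11.7%. Against the control mean, the median chondroitin and dermatan gene stood at 0.15, -0.22 and 0.10 in controls, against 0.61, 0.27 and 0.29 in mutants. The median heparan gene stood at 0.12, -0.15 and 0.07 in controls and at 0.36, 0.04 and 0.13 in mutants. All mutants were thus above all controls for the first branch, while for the second controls 1 and 3 lay above mutant 2. The gap between the branches within a library depends little on its scaling. It was 0.03, -0.08 and 0.03 in controls and 0.25, 0.23 and 0.16 in mutants. When library sex entered the model, so that mutants were set against control 3 alone, the difference between the branch medians was 0.09 in place of 0.21.

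**Figure D2:**
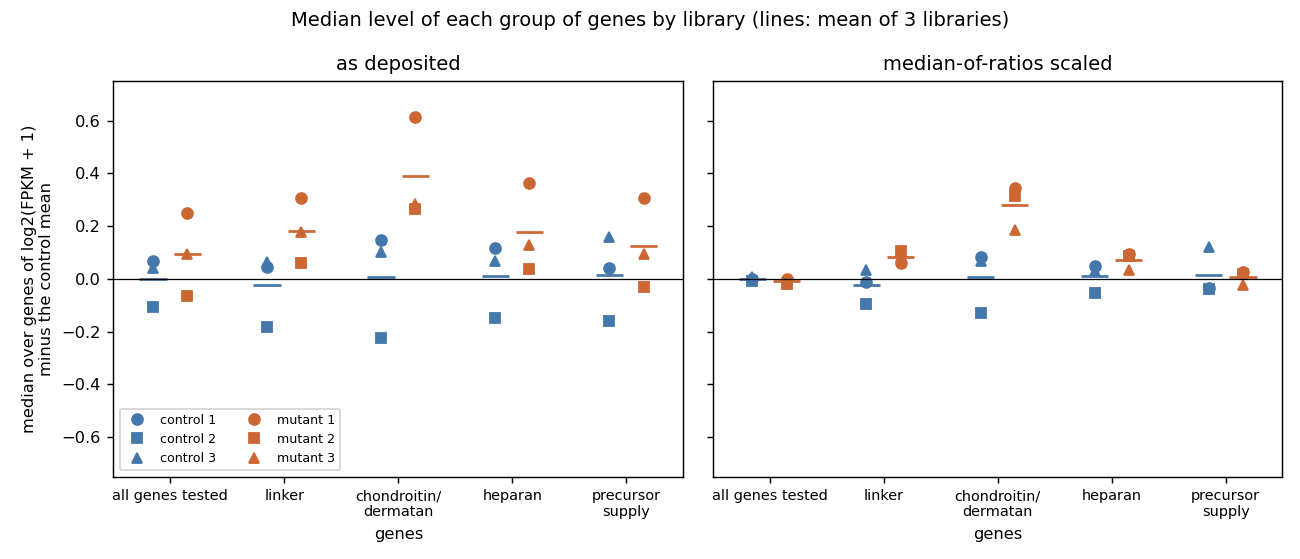
Median over the tested genes of each class of log2(FPKM + 1) minus the control mean, by library, as deposited and after median-of-ratios scaling. Blue symbols are controls 1 to 3, orange symbols mutants 1 to 3, and lines the mean of 3 libraries. The chondroitin/dermatan medians of the mutants (0.61, 0.27 and 0.29 as deposited) lie above those of all controls in both panels.

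Promoters are shown for 4 genes whose mutant values all exceeded the control values and that stand for the linker (B4galt7), chain initiation (Csgalnact2), epimerisation (Dse) and 2-O-sulfation (Ust). Each is the 250 bases upstream of the transcription start in the RefSeq promoter table (GRCm38.p6), written 5′ to 3′ on the strand of the gene. Capitals mark CTTTGA, the core of the site bound by the TCF/LEF partners of beta-catenin, and GGGCGG, the GC box, on either strand; the letters of the motifs do not overlap each other.
B4galt7, chr13:55599646-55599895, plus strand: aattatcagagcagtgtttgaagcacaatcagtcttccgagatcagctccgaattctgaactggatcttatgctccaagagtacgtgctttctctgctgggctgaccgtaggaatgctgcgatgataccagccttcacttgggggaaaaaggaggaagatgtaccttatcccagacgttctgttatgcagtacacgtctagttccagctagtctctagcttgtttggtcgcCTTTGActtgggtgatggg
Csgalnact2, first of 2 entries, chr6:118139141-118139390, minus strand: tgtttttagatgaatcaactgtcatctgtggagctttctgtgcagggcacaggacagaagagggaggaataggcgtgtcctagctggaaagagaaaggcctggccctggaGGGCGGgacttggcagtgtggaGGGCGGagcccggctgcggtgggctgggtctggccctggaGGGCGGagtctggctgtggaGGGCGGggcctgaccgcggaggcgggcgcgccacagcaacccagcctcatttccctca
Dse, chr10:34207236-34207485, minus strand: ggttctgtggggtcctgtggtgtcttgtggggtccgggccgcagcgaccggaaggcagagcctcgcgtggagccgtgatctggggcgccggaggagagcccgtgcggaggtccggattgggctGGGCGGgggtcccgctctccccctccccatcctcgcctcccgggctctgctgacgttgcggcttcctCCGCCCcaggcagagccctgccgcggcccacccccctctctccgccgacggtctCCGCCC
Ust, chr10:8518826-8519075, minus strand: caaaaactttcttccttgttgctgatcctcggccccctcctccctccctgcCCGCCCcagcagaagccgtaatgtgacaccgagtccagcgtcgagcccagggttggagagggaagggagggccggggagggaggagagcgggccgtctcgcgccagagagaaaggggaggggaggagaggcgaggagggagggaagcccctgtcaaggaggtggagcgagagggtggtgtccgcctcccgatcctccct
The B4galt7 window holds 1 CTTTGA and no GC box, and the other 3 windows hold 4, 3 and 1 GC boxes and no CTTTGA. The table had entries for 36 of the 44 genes, 45 promoters in all. CTTTGA was found in 2 of the 45 (4.44%), those of B4galt7 and Extl1, against 13.8% of all 32851 promoters in the table. GGGCGG was found in 28 of the 45 (62.2%), against 32.7% of all. It was in 14 of 17 promoters of the chondroitin and dermatan genes and in 8 of 17 of the heparan genes. These entries stand for 14 and 13 genes, since some genes have 2 entries. The second entries of Csgalnact2, Extl2 and Sulf2 lack a GC box that the first holds. Csgalnact1, Ext1 and Ndst1 are among the genes with no entry, so the branches are not compared here. The median GC content was 64.0% in these 45 windows and 52.4% in all, and a match to letters is no evidence of binding.

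The linker is started by the xylosyltransferases Xylt1 and Xylt2. B4galt7 and B3galt6 then add galactose and B3gat3 adds glucuronic acid, while the kinase Fam20b phosphorylates the xylose. B4galt7 (chromosome 13, 55599896 to 55610443, GRCm38) was at 2.69, 1.82 and 2.47 FPKM in controls and 4.23, 3.35 and 2.86 in mutants. All mutants were above all controls, with a log2 difference of 0.43 (SE 0.16, adjusted p = 0.321). Xylt2 (chromosome 11, 94663851 to 94677515) was at 3.71, 2.73 and 3.44 FPKM in controls and 5.16, 3.60 and 4.61 in mutants. Here mutant 2 fell just below control 1, and the difference was 0.34 (SE 0.15, adjusted p = 0.426). Its relative Xylt1 (chromosome 7, 117380979 to 117673580) was lower, at 1.45, 1.09 and 1.55 FPKM in controls and 1.63, 2.20 and 1.81 in mutants. The groups were separate, with a difference of 0.28 (SE 0.14, adjusted p = 0.491), but they overlapped after median-of-ratios scaling. Fam20b (chromosome 1, 156678532 to 156719086), the linker gene with the highest level, was at 13.5, 12.8 and 13.2 FPKM in controls and 15.9, 11.1 and 13.3 in mutants. The mutants spanned the controls on both sides, and the difference was 0.02 (95% interval -0.32 to 0.35). B3gat3 and B3galt6 had differences of 0.17 and -0.02, the first at 5.97 to 9.23 FPKM and the second at 1.53 to 2.42 FPKM over the 6 libraries. After scaling, B3galt6 and Fam20b stood at -0.11 and -0.10 and the other 4 linker genes between 0.06 and 0.34.

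**Figure D3:**
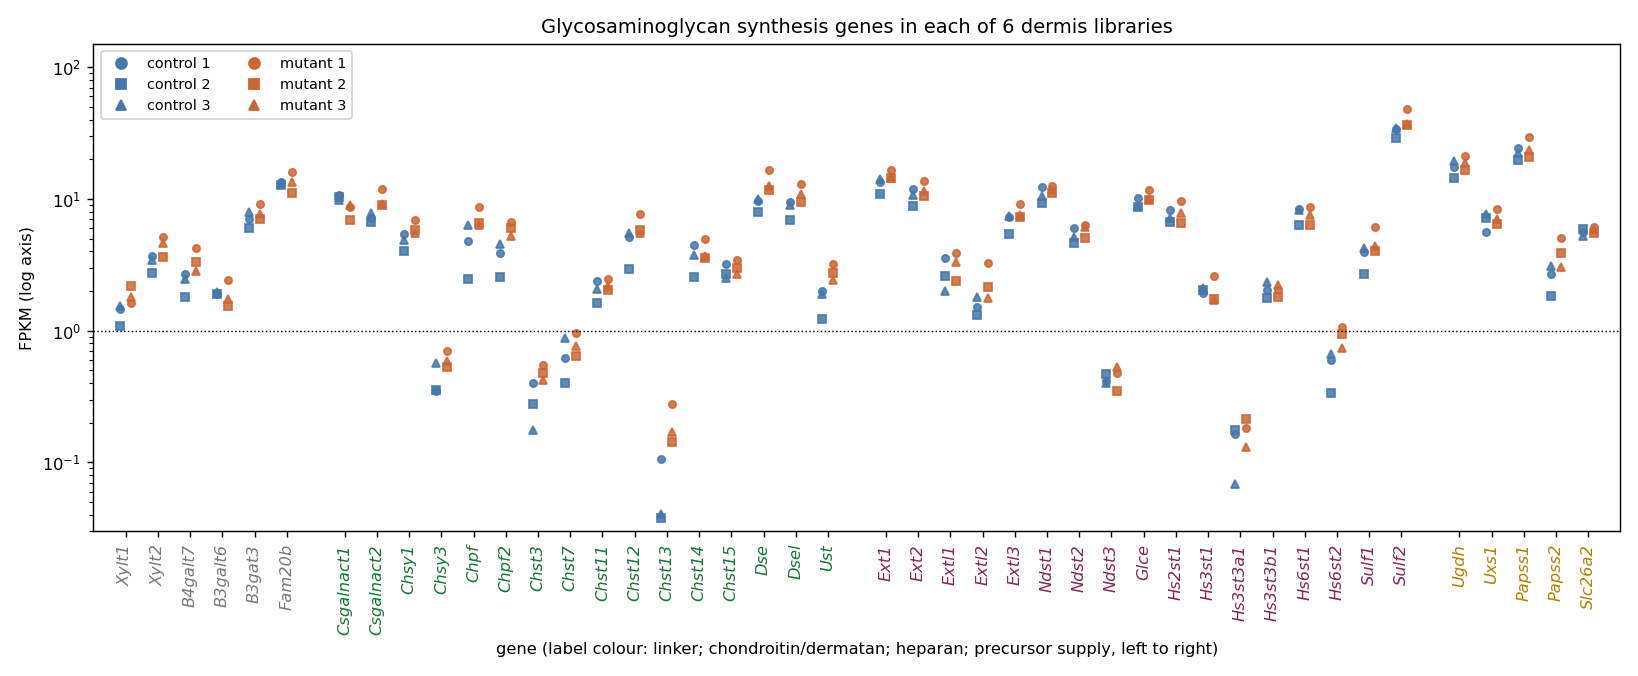
FPKM of all 44 genes in each library on a log axis, with controls in blue and mutants in orange and 1 symbol shape per replicate number. The dotted line marks 1 FPKM; the 7 genes whose mean is below it were not tested. Sulf2 has the highest level, at 29.0 to 48.0 FPKM.

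Chondroitin chains are opened by Csgalnact1 and Csgalnact2, which add the first N-acetylgalactosamine, and these relatives differed in opposite directions. Csgalnact1 (chromosome 8, 68356781 to 68735146) was at 10.7, 10.3 and 9.81 FPKM in controls and 8.74, 6.87 and 9.04 in mutants. All mutants were below all controls, with 0.799 times the control mean and a log2 difference of -0.30 (SE 0.14, adjusted p = 0.459). It was the only tested gene of the 37 with separate groups downward, and its difference was -0.41 after median-of-ratios scaling and -0.19 without mutant 2. Csgalnact2 (chromosome 6, 118107452 to 118139140) was at 7.14, 6.63 and 7.88 FPKM in controls and 11.9, 9.05 and 9.10 in mutants. The mutants all exceeded the controls, at 1.39 times the control mean, with a difference of 0.41 (SE 0.14, adjusted p = 0.289). The ratio of Csgalnact2 to Csgalnact1, which no scaling of a library can change, was 0.664, 0.645 and 0.803 in controls and 1.36, 1.32 and 1.01 in mutants. Csgalnact1 was thus the higher of the pair in every control and Csgalnact2 in every mutant, with mutant 3 close to equal.

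Chain extension is done by the synthase Chsy1 with its partners Chpf and Chpf2, which form complexes that add the repeating disaccharide. Chpf2 (chromosome 5, 24586741 to 24594556) was at 3.89, 2.58 and 4.57 FPKM in controls and 6.72, 6.05 and 5.25 in mutants. Each mutant lay above every control, at 1.63 times the control mean (log2 difference 0.60, SE 0.17, adjusted p = 0.205), the smallest adjusted p of the 37. Its exons overlap those of Smarcd3 on the opposite strand, and whether the counting used strand is not given in the sources used here. Chpf (chromosome 1, 75474569 to 75479307) was at 4.83, 2.48 and 6.31 FPKM in controls and 8.64, 6.58 and 6.33 in mutants. The groups were separate only by the narrow step from control 3 to mutant 3, and the difference was 0.62 (SE 0.25, adjusted p = 0.377), and they overlapped after scaling. Without control 2 it was 0.32, and with library sex in the model it was 0.15. Chsy1 (chromosome 7, 66109515 to 66173798) was at 5.46, 4.05 and 4.92 FPKM in controls and 6.86, 5.81 and 5.54 in mutants. No mutant reached down to the controls, with a difference of 0.29 (SE 0.14, adjusted p = 0.486), and the groups overlapped after scaling; without control 2 it was 0.19. The related synthase Chsy3 was under the filter, at 0.348 to 0.569 FPKM in controls and 0.531 to 0.698 in mutants.

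Dse and Dsel are the epimerases that turn chondroitin into dermatan sulfate, and both had separate groups. Dse (chromosome 10, 34151393 to 34207715) was at 9.65, 8.03 and 10.1 FPKM in controls and 16.6, 11.7 and 12.5 in mutants. Every mutant exceeded every control, at 1.47 times the control mean (log2 difference 0.50, SE 0.16, adjusted p = 0.257), on 538 to 1369 reads per library. Its difference was 0.39 after median-of-ratios scaling, where the adjusted p was 0.113. Dsel (chromosome 1, 111858702 to 111864918) was at 9.41, 6.92 and 9.01 FPKM in controls and 13.0, 9.45 and 11.0 in mutants. Mutant 2 exceeded control 1 by little, and the difference was 0.36 (SE 0.16, adjusted p = 0.439), or 0.24 without control 2. The ratio of Dse to Dsel was 1.10 ± 0.0682 in controls against 1.22 ± 0.0682 in mutants (mean ± SD, n = 3 each), and the groups overlapped.

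The sulfotransferases of this branch differed among themselves. Ust (chromosome 10, 8204756 to 8518825), which sulfates uronic acid at its 2-O position, was at 1.99, 1.24 and 1.89 FPKM in controls and 3.23, 2.72 and 2.44 in mutants. The groups were fully separate upward, at 1.64 times the control mean (log2 difference 0.50, SE 0.15, adjusted p = 0.227), on 84 to 271 reads per library. Chst12, which sulfates chondroitin at the 4-O position, was at 5.13, 2.93 and 5.51 FPKM in controls and 7.67, 5.85 and 5.50 in mutants. Mutant 3 lay just under control 3, and the difference was 0.43 (SE 0.20, adjusted p = 0.469), or 0.21 without control 2. Chst11, another chondroitin 4-O-sulfotransferase, had a difference of 0.10 (95% interval -0.20 to 0.41), at 1.61 to 2.47 FPKM. Chst14, the dermatan 4-O-sulfotransferase that acts together with the epimerases, had a difference of 0.15 (95% interval -0.25 to 0.55), at 2.57 to 4.95 FPKM. Chst15, which adds a second sulfate to N-acetylgalactosamine, had 0.09 (95% interval -0.20 to 0.38), at 2.53 to 3.44 FPKM. Groups overlapped in all 3.

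A further 3 genes of the branch were under the filter. Chst3, a chondroitin 6-O-sulfotransferase, was at 0.404, 0.279 and 0.175 FPKM in controls and 0.552, 0.475 and 0.423 in mutants, on 16 to 66 reads. The lowest mutant exceeded the highest control, with mutant 3 close to control 1. Chst7, another 6-O-sulfotransferase, was at 0.402 to 0.884 FPKM in controls and 0.640 to 0.954 in mutants, and the groups overlapped. Chst13, a further 4-O-sulfotransferase, was at 0.0382 to 0.107 FPKM in controls and 0.142 to 0.279 in mutants, on 1 to 9 reads per library, too few to read a difference.

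Heparan chains are extended by Ext1 and Ext2, which work as a complex, and are opened by Extl3, while Extl2 can end a chain at the linker. Ext1 (chromosome 15, 53064038 to 53346159) was at 13.4, 11.0 and 14.3 FPKM in controls and 16.7, 14.3 and 14.4 in mutants. The groups were separate by a small step from control 3 to mutant 2, with a difference of 0.23 (SE 0.15, adjusted p = 0.661), and they overlapped after scaling; without control 2 it was 0.12. Its partner Ext2 was at 8.89 to 11.8 FPKM in controls and 10.6 to 13.8 in mutants, with a difference of 0.17 (95% interval -0.17 to 0.52). The ratio of Ext1 to Ext2 was 1.23 ± 0.101 in controls against 1.27 ± 0.0728 in mutants (mean ± SD, n = 3 each). Extl2 (chromosome 3, 116007462 to 116029017) was at 1.52, 1.32 and 1.79 FPKM in controls and 3.24, 2.13 and 1.76 in mutants. Mutant 3 lay below control 3 and mutant 1 stood far above the rest, with a difference of 0.39 (SE 0.17, adjusted p = 0.429), or 0.22 without mutant 1. Extl3 and Extl1 had differences of 0.23 and 0.18, with overlapping groups, and Extl3 was at 0.10 without control 2 and 0.14 without mutant 1.

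The enzymes that modify heparan sulfate had the lowest median difference of the heparan genes, 0.10, against 0.23 for chain extension and 0.31 for the sulfatases. Ndst1, the main N-deacetylase and N-sulfotransferase (chromosome 18), was at 12.3, 9.33 and 10.5 FPKM in controls and 12.4, 11.1 and 11.7 in mutants. Control 1 lay just under mutant 1 and above the other mutants, and the difference was 0.13 (95% interval -0.18 to 0.44, adjusted p = 0.828). Its relative Ndst2, known for its part in heparin synthesis in mast cells, had the same difference of 0.13, at 4.63 to 6.00 FPKM in controls and 5.07 to 6.29 in mutants. The mast cell markers, 10 genes, summed to 19.1 to 31.0 FPKM in controls and 43.5 to 78.1 in mutants. Their part in the value of Ndst2 was not tested. The ratio of Ndst1 to Ndst2 was 2.04 ± 0.0222 in controls against 2.02 ± 0.154 in mutants (mean ± SD, n = 3 each). Glce, the heparan epimerase, had a difference of 0.18 and Hs2st1, the 2-O-sulfotransferase, 0.10. Hs6st1, a 6-O-sulfotransferase, and the 3-O-sulfotransferases Hs3st1 and Hs3st3b1 had -0.02, -0.01 and -0.01. Of the 7 tested genes in this set 4 were above 0, against 71.3% of all genes. Separate groups were found in 0, where 13.0% of all genes were separate upward and 2.65% downward. With 7 genes, these counts are too few to be read as a trait of the set. The intervals ran from -0.37 at the lowest to 0.47 at the highest. After median-of-ratios scaling the 7 lay between -0.13 and 0.07.

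Among the low heparan genes, Hs6st2 (chromosome X, 51387212 to 51681856) was at 0.603, 0.338 and 0.671 FPKM in controls and 1.06, 0.940 and 0.735 in mutants, on 23 to 89 reads. All mutants were above all controls, and it was not tested because its mean was under 1 FPKM. Ndst3 and Hs3st3a1 were also under the filter, at 0.351 to 0.528 and 0.0680 to 0.214 FPKM, with overlapping groups. Hs3st3a1 and Hs3st3b1 have nearly identical catalytic domains, so their reads may have been dropped or split.

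Sulf1 and Sulf2 are secreted sulfatases that remove 6-O-sulfates from finished heparan chains outside the cell. Sulf2 (chromosome 2, 166073089 to 166155663) had the highest level of all 44 genes, at 33.7, 29.0 and 34.5 FPKM in controls and 48.0, 36.2 and 37.1 in mutants. The mutants all exceeded the controls, also after scaling, with a difference of 0.30 (SE 0.17, adjusted p = 0.591) and 0.18 after scaling or without mutant 1. Its exons overlap those of Ncoa3 on the opposite strand. Sulf1 was at 2.68 to 4.28 FPKM in controls and 4.02 to 6.07 in mutants, with a difference of 0.32 (SE 0.18, adjusted p = 0.570) and overlapping groups, or 0.16 without control 2 and 0.17 without mutant 1. The ratio of Sulf1 to Sulf2 was 0.112 ± 0.0169 in controls against 0.118 ± 0.00785 in mutants (mean ± SD, n = 3 each).

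Precursors come from Ugdh, which makes UDP-glucuronic acid, Uxs1, which turns it into UDP-xylose, the sulfate transporter Slc26a2, and Papss1 and Papss2, which make PAPS, the donor of all sulfate groups. Papss1 (chromosome 3, 131564768 to 131643671), the highest of them, was at 24.6, 19.7 and 22.3 FPKM in controls and 29.6, 20.8 and 23.6 in mutants. Mutants 2 and 3 lay within the controls, and the difference was 0.14 (SE 0.17, adjusted p = 0.859). Papss2 (chromosome 19, 32595790 to 32667187) was lower, at 2.71, 1.83 and 3.12 FPKM in controls and 5.03, 3.89 and 3.06 in mutants. Mutant 3 fell just below control 3, with a difference of 0.49 (SE 0.18, adjusted p = 0.338). The ratio of Papss2 to Papss1 was 0.114 ± 0.0239 in controls against 0.162 ± 0.0297 in mutants (mean ± SD, n = 3 each), with overlapping groups. Ugdh, Uxs1 and Slc26a2 had differences of 0.13, 0.08 and 0.05, and groups that overlapped. After scaling, 4 of the 5 precursor genes lay between -0.05 and 0.02, with Papss2 at 0.40.

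Ratios of related enzymes within a library were compared for 13 pairs, chosen after the values were seen. Groups were separate upward in 2 pairs, Csgalnact2 over Csgalnact1 and Hs6st2 over Hs6st1, and overlapped in the other 11. Hs6st2 relative to Hs6st1 was 0.0722, 0.0531 and 0.0808 in controls and 0.122, 0.148 and 0.0966 in mutants, from the low reads given above. With 3 libraries against 3, an exact permutation test of a single ratio cannot give a p below 0.1. That 0.1 is also the share of splits in which a ratio is separate in either direction, and 2 of 13 pairs is near it. Library sex did not enter the ratios, and Hs6st2 lies on the X chromosome. Control 3, the only control with low Xist, had the highest control ratio in both pairs, 0.803 and 0.0808. The lowest mutant ratios, both in mutant 3, were 1.01 and 0.0966. These ratios are therefore given as values only.

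**Figure D4:**
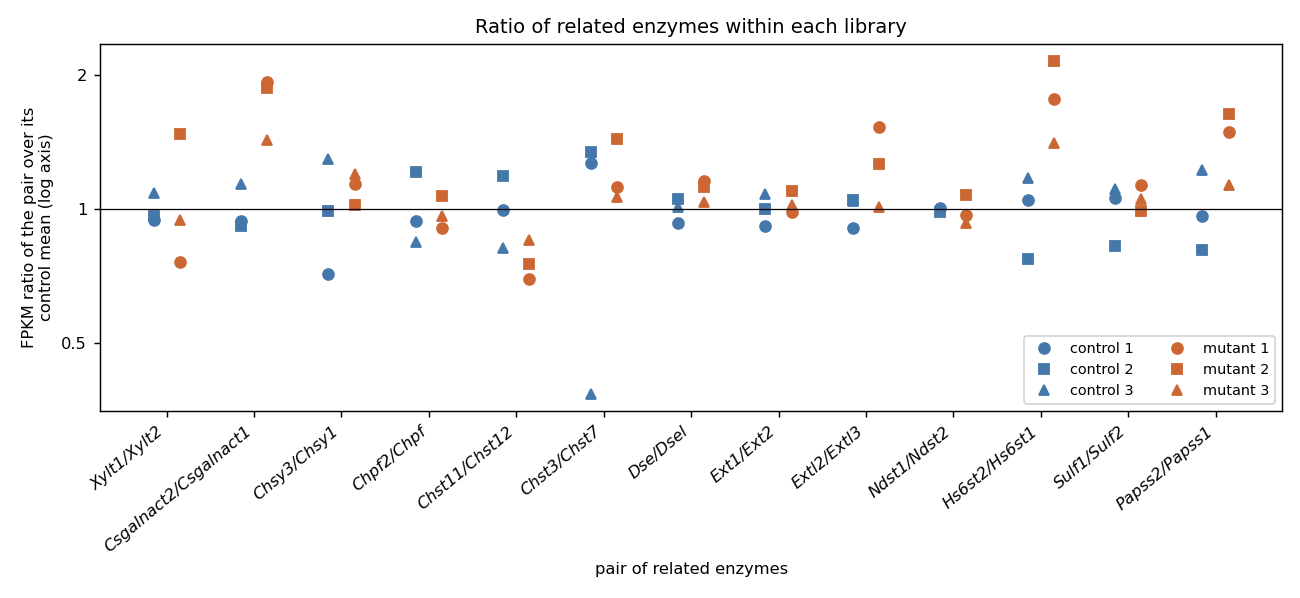
Ratio of FPKM of 13 pairs of related enzymes in each library, divided by the pair's control mean, on a log axis, with controls in blue and mutants in orange. The mutants lie above all controls for Csgalnact2/Csgalnact1 (1.01 to 1.36 against 0.645 to 0.803 before division) and for Hs6st2/Hs6st1.

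Genes that act beside and after these enzymes were taken from 5 further lists, and no gene of the 5 lists was called over all genes. Of 18 genes for proteins that carry chondroitin or dermatan sulfate, 11 were tested, all 11 were above 0 (71.3% of all genes), 9 had an unadjusted p under 0.05 (10.5% of all genes, higher) and 8 had separate groups upward (13.0% of all genes). Their median difference was 0.59, and 0.49 after median-of-ratios scaling. Vcan, the large proteoglycan versican, was at 11.6, 7.74 and 11.3 FPKM in controls and 18.1, 17.9 and 14.9 in mutants (difference 0.70, adjusted p = 0.143). Cd74, an invariant chain of antigen-presenting cells that can carry a chondroitin chain, was at 54.5, 26.7 and 27.0 FPKM in controls and 140, 74.9 and 96.4 in mutants (difference 1.53, adjusted p = 0.0970). In both genes, all mutants were above all controls. Spock2 had a difference of 0.67. Of 15 genes for heparan sulfate core proteins, 13 were tested. In 10 the difference was above 0, a share of 76.9% near the 71.3% of all genes, while 6 had an unadjusted p under 0.05, all higher, and 5 had separate groups upward, against 10.5% and 13.0% of all genes. Their median was 0.45, and 0.34 after scaling. Tgfbr3, the receptor betaglycan, had a difference of 0.64, the syndecan Sdc3 0.50 and the glypican Gpc4 0.47. Gpc4 was at 17.1 ± 0.0337 FPKM in controls against 24.1 ± 1.99 in mutants (mean ± SD, n = 3 each; adjusted p = 0.209). Genes of core proteins of both classes thus had larger medians than the enzymes of their branch (0.39 and 0.18), a contrast that was not tested. The log2(FPKM + 1) scale understates low genes, and the 2 sets differ in level. Mean levels reached 424 and 94.6 FPKM in the core protein lists, against 11.4 and 36.4 in the enzymes of their branch. Medians of the core lists without a library or with library sex are not given here.

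The lysosomal enzymes take the chains apart. Of 17 genes, 16 were tested and 0 were called. No further count or median is given for them, since Galns and Arsg passed the filter only through the mutants, with control means of 0.767 and 0.795 FPKM. Hexa, a hexosaminidase subunit, was at 13.2, 7.61 and 15.8 FPKM in controls and 33.3, 16.5 and 19.6 in mutants (difference 0.86, adjusted p = 0.289). Gusb, the beta-glucuronidase, had a difference of 0.59 and Arsb, which removes a sulfate from N-acetylgalactosamine, 0.40. The macrophage markers, 10 genes, summed to 101 to 182 FPKM in controls and 252 to 475 in mutants, with none at 0 in any library. Of the 9 tested, 8 were separate upward, against 13.0% of all genes. Their part in the values of Cd74, the lysosomal genes or the chain enzymes was not tested. Of 18 genes of nucleotide sugar and sulfate donor supply, 16 were tested, 15 were above 0, against 71.3% of all genes, and 1, Ugp2, had separate groups upward, against 13.0%. Their median was 0.15, and 0.05 after scaling. Galk1 and Slc35b2, which carries PAPS into the Golgi, had differences of 0.41 and 0.43. Of 17 other glycosaminoglycan synthesis genes in the table, mostly keratan sulfate enzymes and rare heparan sulfotransferases, 2 were tested: B4galt1, with a difference of 0.30, and B4galt4, with -0.07.

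The keratinocyte and hair follicle markers, 12 genes, summed to 5017 to 5342 FPKM in controls and 3474 to 6014 in mutants. The endothelial markers, 8 genes, summed to 36.7 to 46.3 and 49.1 to 59.6 FPKM, with all 8 above 0, against 71.3% of all genes. The adipocyte markers, 8 genes, summed to 352 to 393 and 404 to 621 FPKM. The Schwann cell markers, 7 genes, summed to 50.0 to 88.5 and 73.8 to 108 FPKM, and the skeletal muscle markers, 8 genes, to 318 to 1246 and 624 to 1327. Of 4 blood markers, the haemoglobin genes Hba-a1, Hba-a2 and Hbb-b1 were listed at exactly 0 in all 6 libraries and so measure nothing about blood here, and Alas2 was at 2.43 to 4.11 FPKM. The chain enzymes are made by many of these cells, and the part of cell makeup in their values was not tested.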

How the data were processed

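Stranded paired-end libraries were made from total RNA of ventral dermis, 1 per mouse, per the labels' protocols. Libraries were grouped by their source labels into 3 controls and 3 mutants, each a mouse of its own by those labels. The deposited table gives the FPKM the authors computed for each gene in each library. GSNAP, HTSeq and mm10 come from the submitters' processing notes. Versions, annotation, counting options and the fragments that make up the depth: not given in the sources used here.

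Values were compared as log2(FPKM + 1) with limma (version 3.58.1, R 4.3.3), two-sided, letting the prior variance follow mean expression (5.44 prior degrees of freedom) and no covariate. A filter on mean FPKM, at least 1 over all libraries, left 12560 of 23412 genes. P-values were adjusted by Benjamini-Hochberg over all of these, with a threshold of 0.05. No glycosaminoglycan gene passed that filter through the mutants alone, since the lowest control mean among the 37 tested was 1.36 FPKM. The fit was also run on simulated counts. These lacked the library-wide shifts of the data, so the run does not show how the fit performs here. The members and lists were chosen with earlier results of these data known, so no list was tested. Tested genes given in full were those with an unadjusted p under 0.05 or separate groups, and the gene of highest level in each role. Chst12 was also given in full, although it met none of these conditions.

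Whole reads were recovered for 20144 of the 20144 genes seen in 2 or more libraries, from the common step of each gene's FPKM values (relative tolerance 3e-09). The rest of the 23412 genes have no such step. Genes seen in a single library were set to 1 read, and genes at 0 in every library to 0 reads. Tested glycosaminoglycan genes had 46 to 3882 reads per library and untested ones 1 to 89. Between replicates, chi-square per degree of freedom was 12.7 to 63.0, well above counting noise. Same-numbered controls and mutants did not deviate together, so they were not paired. Gene coordinates are from GENCODE M21 (GRCm38), where 10 of the 44 genes share exonic sequence with another annotated gene. Promoters are from RefSeq (GRCm38.p6). Alternatives covered scaling, pseudocount, filter, each library left out, a replicate block, library sex and limma-voom on recovered reads.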

Additional observations from a re-analysis of the deposited data

How the results depend on the processing

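No glycosaminoglycan gene was called under any of the 14 alternatives. Over all genes, 18 were called higher; this became 32 with quantile normalization, 9 with pseudocount 0.1, 4 with no filter, 10 with library sex as a covariate (1 lower) and 71 with limma-voom. Leaving out each library in turn gave 3 (without mutant 2) to 189 (without control 3) higher and 0 to 4 lower. The replicate block gave 67 higher and 1 lower, and the correlations of same-numbered libraries, 0.0016, 0.037 and -0.082, do not pair them. Correlations of differently numbered libraries ran from -0.27 to 0.28. The labels state no pairing, so mice that shared a litter could not be matched. The share of higher calls at an unadjusted p under 0.05 was 93.4% as deposited and 60.9% after median-of-ratios scaling. With a filter at mean FPKM 5, fewer genes were tested, and 20 glycosaminoglycan genes were above 0 and 7 separate upward. The gap between the branch medians, 0.21, was 0.073 with no filter and 0.088 with library sex, and 0.14 (without control 2) to 0.31 (without control 3) with a library left out; the cause was not tested. Of 503 values of single genes under the alternatives, 468 kept their direction and 35, over 13 genes, changed it, all from differences of 0.17 or less. With median-of-ratios scaling Fam20b was at -0.098, Chst15 was at -0.00020, Hs2st1 was at -0.0043, Uxs1 was at -0.028 and Slc26a2 was at -0.051. With quantile normalization these were -0.093, -0.043, -0.0021, -0.023 and -0.060, and Chst11 was at -0.027. With limma-voom the same 5 were -0.11, -0.0074, -0.0059, -0.014 and -0.057. With library sex B3gat3 was at -0.0074, Ugdh was at -0.043 and Uxs1 was at -0.078. With a library left out, ranges that crossed 0 were B3galt6 from -0.15 to 0.067, Fam20b from -0.10 to 0.14, Chst14 from -0.023 to 0.28, Hs2st1 from -0.027 to 0.22, Hs3st1 from -0.14 to 0.065, Hs3st3b1 from -0.080 to 0.053, Hs6st1 from -0.13 to 0.085 and Uxs1 from -0.036 to 0.16. Depth limits the 7 untested genes, at 1 to 89 reads per library.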
